A study of Mus musculus with 36 samples.

Results

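Bone marrow-derived macrophages that carried the D310N form of Tnip2 were compared at 240 min and 120 min of lipopolysaccharide (LPS), 3 libraries at each time. The D310N 240 min and D310N 120 min libraries are 6 of 36 in the series, which also holds D310N macrophages at 0, 30, 60 and 360 min and WT macrophages at the same 6 times. All genes were taken that reached a value of about 10 on the linear scale in 3 or more of the 36 libraries, which kept 11659 of 16416 named genes. The cells of every group were grown from mouse bone marrow for 7 days with 10% L929 supernatant, a source of the growth factor M-CSF, and all but the 0 min groups received 100 ng/ml LPS. WT macrophages at 240 and 120 min of the same treatment, 3 libraries each, gave the step in the other genotype. The sample titles write D310N and the table header D309N for the same columns. The labels give the strain, sex and age of no group or the zygosity of the allele, and do not say whether the 3 libraries of a group came from separate mice or cultures, so the p-values measure the spread between libraries, which may be technical. At the filter, Gm5127 was just inside with a third-highest log2 value of 3.3207, and 4930552P12Rik just outside with 3.3164.
LPS is recognised by the receptor TLR4, which starts a fast wave of transcription through NF-kB and MAP kinases. A slower wave follows, carried by newly made interferon-beta and by secreted cytokines, which act through STAT and IRF factors on genes that hold interferon-stimulated response elements. Tnip2 encodes ABIN-2, a ubiquitin-binding protein that holds and stabilises the kinase Tpl2, product of Map3k8, upstream of ERK. The comparison asks what changed in D310N macrophages between these waves, and the WT step shows where that change differed with genotype.
The tissue label was checked on 8 macrophage markers, whose log2 values were at least 11.57 in each of the 6 libraries. Lyz2, which encodes lysozyme, had log2 values of 16.86, 16.97 and 16.81 at 240 min, against 16.97, 17.0 and 16.91 at 120 min. Adgre1, which encodes the surface protein F4/80, had 15.45, 15.49 and 15.43 at 240 min, against 14.98, 15.05 and 15.03 at 120 min. Csf1r, the receptor for M-CSF, had 13.96, 14.07 and 14.03 at 240 min, against 14.37, 14.47 and 14.38 at 120 min. Lyz2 overlapped between the times, the Adgre1 libraries were all higher at 240 min and the Csf1r libraries all lower. Markers of other lineages were present in part, and the summed levels of their lists are given below with the step. The members of the neutrophil, T and NK cell, B cell, dendritic cell, stromal and endothelial, and erythroid lists that did not pass the filter, and are low by that choice, reached log2 values of at most 2.68, 1.98, 1.35, 2.39, 3.55 and 2.73 in the 6 D310N libraries. Median log2 values over the tested genes lay between 8.492 and 8.527 in the 6 libraries, and the SD of a library from its group mean between 0.0973 and 0.128. One library elsewhere in the series stood apart, WT 360 min replicate 1, with an SD of 0.246. It enters the results through the shared estimate of spread and the WT mean at 360 min.
Between the times most of the measured genes changed. In limma's test with Benjamini-Hochberg adjustment, 3635 genes were higher at 240 min and 3716 were lower, 31.2% and 31.9% of 11659, or 63.1% together, when calls were made at 0.05. A difference of more than 1 on the log2 scale was less common and leaned upwards, with 759 genes higher (6.51%) and 461 lower (3.95%). Past 2 on the log2 scale there were 147 genes higher and 22 lower. The libraries of the 2 times did not overlap for 7658 genes (65.7%), of which 6992 were called. The median difference over all tested genes was -0.02 and the median size of a called difference 0.47. A log2 difference is 240 min minus 120 min throughout, with its standard error (SE) from limma and n = 3 libraries a time. In bulk RNA, fewer cells of a kind and less RNA in each cell cannot be told apart.

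**Figure D1:**
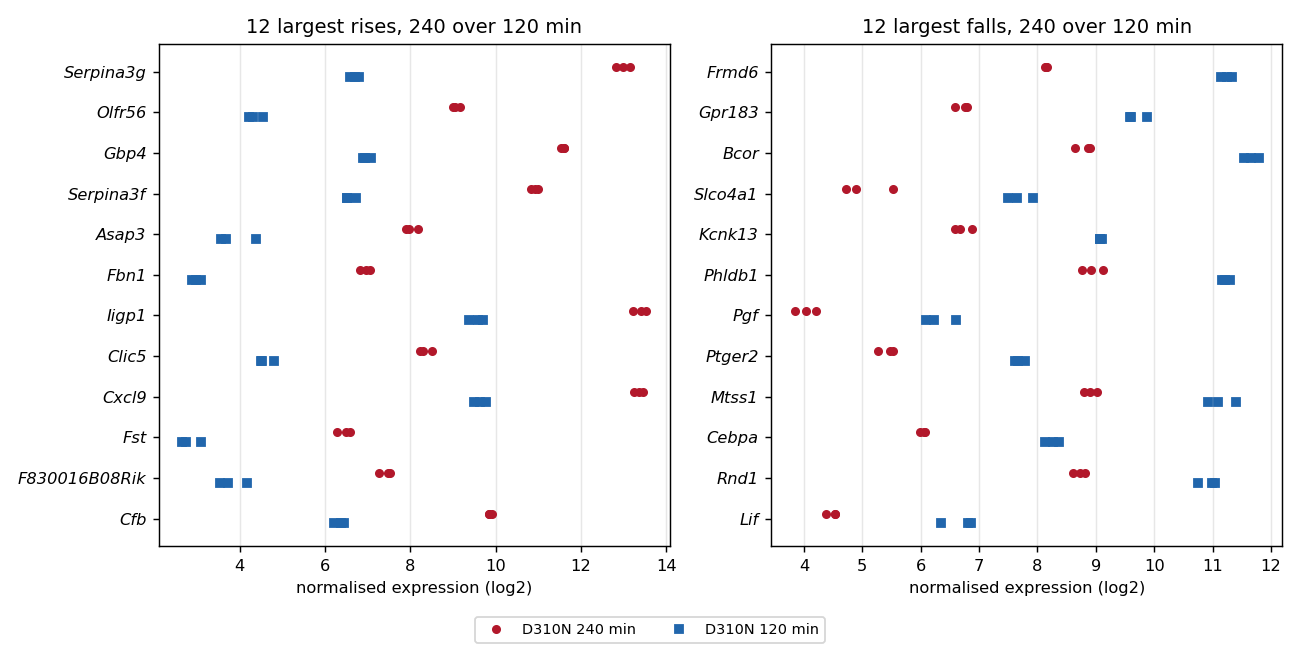
Normalised log2 expression (horizontal axis) of the 12 called genes that rose most and the 12 that fell most, taken where the libraries of the times did not overlap and the group that was higher reached a linear mean of 50; each circle is a D310N 240 min library and each square a D310N 120 min library, 3 of each. Circles and squares lie apart because the genes were chosen so, and the widest gap belongs to Serpina3g, with a difference of 6.3.

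The 12 largest rises included 2 serpins, the immunity GTPases Gbp4 and Iigp1 and a chemokine beside other genes. All were taken by a rule that asks for no overlap between the times. Serpina3g, a serine and cysteine protease inhibitor of myeloid cells (chromosome 12, 104236245 to 104241939, build GRCm38), had log2 values of 13.16, 12.83 and 12.98 at 240 min, against 6.79, 6.69 and 6.59 at 120 min. Each 240 min library lay far above each 120 min library, and its difference was 6.3 ± 0.15 (adjusted p = 1.92e-25). Gbp4, a guanylate-binding protein of cell-autonomous immunity, had 11.59, 11.53 and 11.6 at 240 min, against 6.88, 7.08 and 6.93 at 120 min. Serpina3f, a neighbouring serpin, had 10.98, 10.82 and 10.93 at 240 min, against 6.73, 6.51 and 6.5 at 120 min. Neither gene showed overlap, with differences of 4.61 ± 0.1 (adjusted p = 7.28e-27) and 4.33 ± 0.08 (adjusted p = 1.96e-27). Gbp4 overlaps Gbp8 and Gbp9 on the same strand, so reads may be shared among them.
Cxcl9, a chemokine that attracts T cells through CXCR3, had log2 values of 13.47, 13.25 and 13.37 at 240 min, against 9.78, 9.48 and 9.64 at 120 min. Iigp1, an interferon-inducible GTPase that attacks pathogen vacuoles, had 13.54, 13.23 and 13.41 at 240 min, against 9.58, 9.37 and 9.69 at 120 min. Both were high in each 240 min library and well below in each 120 min library, and rose by 3.73 ± 0.06 (adjusted p = 1.58e-29) and 3.85 ± 0.1 (adjusted p = 4.76e-25). Cfb, complement factor B of the alternative pathway, had 9.85, 9.85 and 9.92 at 240 min, against 6.2, 6.38 and 6.45 at 120 min. Its libraries did not overlap and its difference was 3.53 ± 0.14 (adjusted p = 6.97e-20). Cfb overlaps the locus Gm20547.
The rest of the 12 were not grouped by role, and Olfr56 was second of all by its difference. Fbn1, which encodes the microfibril protein fibrillin-1, had 7.05, 6.81 and 6.95 at 240 min, against 2.87, 2.97 and 3.08 at 120 min. Fst, the activin-binding protein follistatin, had 6.59, 6.28 and 6.49 at 240 min, against 2.65, 2.73 and 3.08 at 120 min. Asap3, an activator of GTP hydrolysis by Arf proteins, had 7.97, 8.18 and 7.9 at 240 min, against 3.69, 3.55 and 4.39 at 120 min. Their differences were 3.96 ± 0.15, 3.63 ± 0.15 and 4.14 ± 0.22. Fbn1 and Fst lay under the filter in each 120 min library and passed it through libraries in which they were higher, so a low level at 120 min was allowed by the choice. Fbn1 overlaps the locus Gm9913. Clic5, a chloride intracellular channel protein, had 8.29, 8.51 and 8.21 at 240 min, against 4.52, 4.8 and 4.5 at 120 min, a difference of 3.73 ± 0.19. F830016B08Rik had 7.48, 7.27 and 7.51 at 240 min, against 3.53, 3.73 and 4.16 at 120 min, a difference of 3.61 ± 0.23. Olfr56, annotated as an olfactory receptor, had 9.16, 9.0 and 9.05 at 240 min, against 4.22, 4.31 and 4.54 at 120 min, a difference of 4.72 ± 0.15. The Olfr56 locus overlaps Ifi47, Tgtp1 and Tgtp2, all interferon-inducible, and the counting is not stated to resolve shared reads, so its value is uncertain.
Promoter sequences are shown for genes on which these results turn, with the matched letters in capitals. Motifs were searched on both strands of 300-base RefSeq promoter windows around the start of each gene, and each match is printed with 30 bases on either side (GRCm38.p6, 5′ to 3′ on the strand of the gene). The core of the interferon-stimulated response element was searched as GAAANNGAA, which 8.56% of 32851 RefSeq promoters hold, and the NF-kB site by its usual consensus, which 8.46% hold.
Cxcl9 ISRE core, chr5:92328216-92328284, minus strand: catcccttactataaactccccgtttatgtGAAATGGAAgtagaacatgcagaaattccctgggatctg
Tgtp1 ISRE core, chr11:48992285-48992353, minus strand: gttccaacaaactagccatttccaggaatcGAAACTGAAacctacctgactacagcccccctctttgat
Cxcl10 ISRE core, chr5:92349064-92349132, minus strand: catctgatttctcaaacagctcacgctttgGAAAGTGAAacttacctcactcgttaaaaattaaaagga
Cd274 ISRE core, chr19:29367332-29367400, plus strand: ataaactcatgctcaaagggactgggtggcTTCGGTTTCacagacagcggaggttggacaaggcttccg
Socs1 ISRE core, chr16:10785575-10785649, minus strand: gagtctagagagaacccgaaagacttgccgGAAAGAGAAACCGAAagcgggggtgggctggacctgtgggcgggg
Cxcl1 NF-kB site, chr5:90891144-90891214, plus strand: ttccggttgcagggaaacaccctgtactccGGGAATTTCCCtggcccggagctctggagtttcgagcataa
Il6 NF-kB site, chr5:30013040-30013109, plus strand: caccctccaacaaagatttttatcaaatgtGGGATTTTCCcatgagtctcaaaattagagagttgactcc
Lif NF-kB site, chr11:4257360-4257429, plus strand: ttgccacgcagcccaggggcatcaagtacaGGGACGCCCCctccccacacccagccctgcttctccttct
Tnip1 NF-kB site, chr11:54962957-54963028, minus strand: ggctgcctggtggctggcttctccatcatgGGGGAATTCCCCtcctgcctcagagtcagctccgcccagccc
The first 5 genes hold the response element core and rose, and the last 4 hold an NF-kB site, of which Il6 rose and Cxcl1, Lif and Tnip1 fell. They are examples and do not sort the genes by direction: Bcor and Kcnk13, among the largest falls, also hold the response element core, Serpina3g, Tlr3 and Nfkb2, which rose, hold an NF-kB site, and Cxcl10 holds 3 NF-kB matches beside its response element core. A match of letters is a description and not a bound site. Promoters were matched for 9353 of the tested genes (80.2%). Of the 759 genes over 1 higher and the 461 over 1 lower, fewer than 80% had one, so a comparison of motif shares between these sets is void and none is made. In the NF-kB subunit and inhibitor list, where 14 of 17 genes had a promoter, 12 of 19 promoters held an NF-kB site (63.2%). In the interferon-stimulated list 34 of 44 genes and in the guanylate-binding and IRG list 11 of 19 had one, so a share over either is void as well.
Interferon-stimulated genes rose as a block. All 44 tested type I interferon-stimulated genes were called higher at 240 min, against 31.2% of all tested genes, and their median difference was 1.65, against -0.02 over all tested genes. The range ran from 0.5 for Ifitm3, a membrane protein that blocks viral entry, to 2.6 for Ifi44. Zbp1, a sensor of Z-form nucleic acids, had log2 values of 12.81, 12.82 and 12.86 at 240 min, against 10.3, 10.29 and 10.2 at 120 min. Herc6, an ISG15 ligase in mice, had 13.43, 13.38 and 13.33 at 240 min, against 10.95, 10.87 and 10.98 at 120 min. Pml, the scaffold of nuclear bodies, had 12.33, 12.45 and 12.42 at 240 min, against 10.04, 10.12 and 9.91 at 120 min. The 3 genes were higher in each 240 min library than in any 120 min library, by 2.56 ± 0.08 (adjusted p = 3.38e-22), 2.45 ± 0.07 (adjusted p = 2.62e-23) and 2.38 ± 0.06 (adjusted p = 2.62e-25). Ifi44 had 11.84, 11.7 and 11.84 at 240 min, against 9.13, 9.13 and 9.31 at 120 min, also without overlap. The list's median rise over the 120 min mean was 1.64, 1.65 and 1.67 in the 3 libraries of 240 min.
All 19 guanylate-binding proteins and IRG GTPases, which disrupt the vacuoles of intracellular pathogens, were called higher, with a median of 2.40. Each of them rose by more than 1. Gbp9 had 13.08, 12.98 and 13.02 at 240 min, against 9.59, 9.88 and 9.74 at 120 min, and Tgtp1 had 10.18, 10.15 and 10.1 at 240 min, against 7.03, 6.98 and 6.68 at 120 min. The groups lay far apart for both, with differences of 3.29 ± 0.09 (adjusted p = 5.97e-24) and 3.25 ± 0.12 (adjusted p = 1.41e-20). The smallest difference in the list was 1.07, for Irgm2, a regulatory member. Members of this family are near-identical in parts, so the split of reads between Gbp6 and Gbp10, or Tgtp1 and Tgtp2, is uncertain.
The factors and receptors of interferon signalling moved less evenly. Of 19 STAT, IRF and JAK genes, 14 rose and 3 fell, with a median of 0.60, or 13 and 5 under quantile normalisation. Irf7, which drives interferon genes, had 13.88, 14.04 and 13.96 at 240 min, against 11.72, 11.82 and 11.59 at 120 min, and rose by 2.25 ± 0.11 (adjusted p = 1.32e-17). Stat3, the factor of IL-6 and IL-10 signalling, had 13.15, 13.19 and 13.11 at 240 min, against 11.31, 11.51 and 11.36 at 120 min, and Irf8, a factor of myeloid fate, had 14.67, 14.42 and 14.59 at 240 min, against 12.87, 12.8 and 12.76 at 120 min. Neither showed overlap between the times, with differences of 1.76 ± 0.05 (adjusted p = 2.6e-23) and 1.75 ± 0.09 (adjusted p = 1.19e-17). Irf2, which competes with Irf1 for response elements, rose by 1.79 ± 0.06 (adjusted p = 1.86e-22), while Irf1 stood at -0.08 ± 0.09 and was not called. Irf4 fell by 1.29 ± 0.12, Stat6 by 0.47 ± 0.03 and Irf3 by 0.25 ± 0.06. Ifnb1, which encodes interferon-beta and was chosen after its values were seen, had 8.02, 7.99 and 7.93 at 240 min, against 9.36, 9.29 and 9.13 at 120 min. Its 240 min libraries all lay below its 120 min libraries, and it fell by 1.28 ± 0.22 (adjusted p = 5.79e-06).
Transcripts of the MHC class I pathway rose and those of class II barely moved. Of 20 tested class I and immunoproteasome genes 18 rose and 0 fell, with a median of 0.98. Under quantile normalisation 15 rose and 1 fell, with a median of 0.68. Nlrc5, the transactivator of class I genes, had 12.81, 12.9 and 12.88 at 240 min, against 9.82, 10.06 and 9.83 at 120 min, and Tap1, a subunit of the peptide transporter, had 13.68, 13.72 and 13.65 at 240 min, against 11.93, 11.89 and 11.81 at 120 min. Both lay higher in each 240 min library, by 2.96 ± 0.05 (adjusted p = 5.74e-28) and 1.8 ± 0.04 (adjusted p = 1.07e-25). H2-T22, a non-classical class I gene with close relatives, had 10.85, 11.09 and 10.84 at 240 min, against 9.02, 9.52 and 9.69 at 120 min, a difference of 1.52 ± 0.13. H2-Q6, another with close relatives, had 1.91, 1.89 and 1.78 at 240 min, against 4.76, 2.27 and 2.02 at 120 min; it lay lower in each 240 min library, but its difference of -1.16 ± 0.96 was not called (adjusted p = 0.304). Of 9 tested class II genes 4 were called higher and 0 lower, with a median of 0.11. The largest of these was H2-Ab1 with 9.48, 9.51 and 9.54 at 240 min, against 9.22, 9.15 and 9.16 at 120 min, a difference of 0.34 ± 0.07 (adjusted p = 6.56e-05). Quantile normalisation left 2 class II genes higher and 1 lower, and turned the differences of Cd74 and Ctss to the opposite sign.
Surface proteins listed as costimulators and checkpoint ligands rose in most cases, with 10 of 15 higher, 4 lower and a median of 1.18. The list is not of ligands alone and also holds the activation antigen Cd69 and the receptor Havcr2. Cd69, an early activation antigen, had 15.1, 14.92 and 15.01 at 240 min, against 12.18, 12.18 and 12.16 at 120 min. Cd274, the checkpoint ligand PD-L1, had 14.58, 14.38 and 14.53 at 240 min, against 12.26, 12.26 and 12.3 at 120 min. Cd86, which engages CD28, had 11.2, 11.33 and 11.22 at 240 min, against 9.15, 9.53 and 9.21 at 120 min. In all 3 genes every 240 min library lay above every 120 min library, with differences of 2.83 ± 0.1 (adjusted p = 1.98e-21), 2.23 ± 0.06 (adjusted p = 1.75e-24) and 1.96 ± 0.12 (adjusted p = 3.17e-15). Pdcd1lg2, the ligand PD-L2, rose by 2.1 ± 0.22 but stayed low, with 3.34, 3.3 and 3.48 at 240 min, against 1.31, 1.23 and 1.29 at 120 min. Its 120 min values lay under the filter, which it passed through libraries in which it was higher. Havcr2, the inhibitory receptor TIM-3, fell by 0.92 ± 0.08, Cd44 by 0.46 ± 0.07, Tnfsf4 by 0.45 ± 0.15 and Cd83 by 0.11 ± 0.04.

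**Figure D2:**
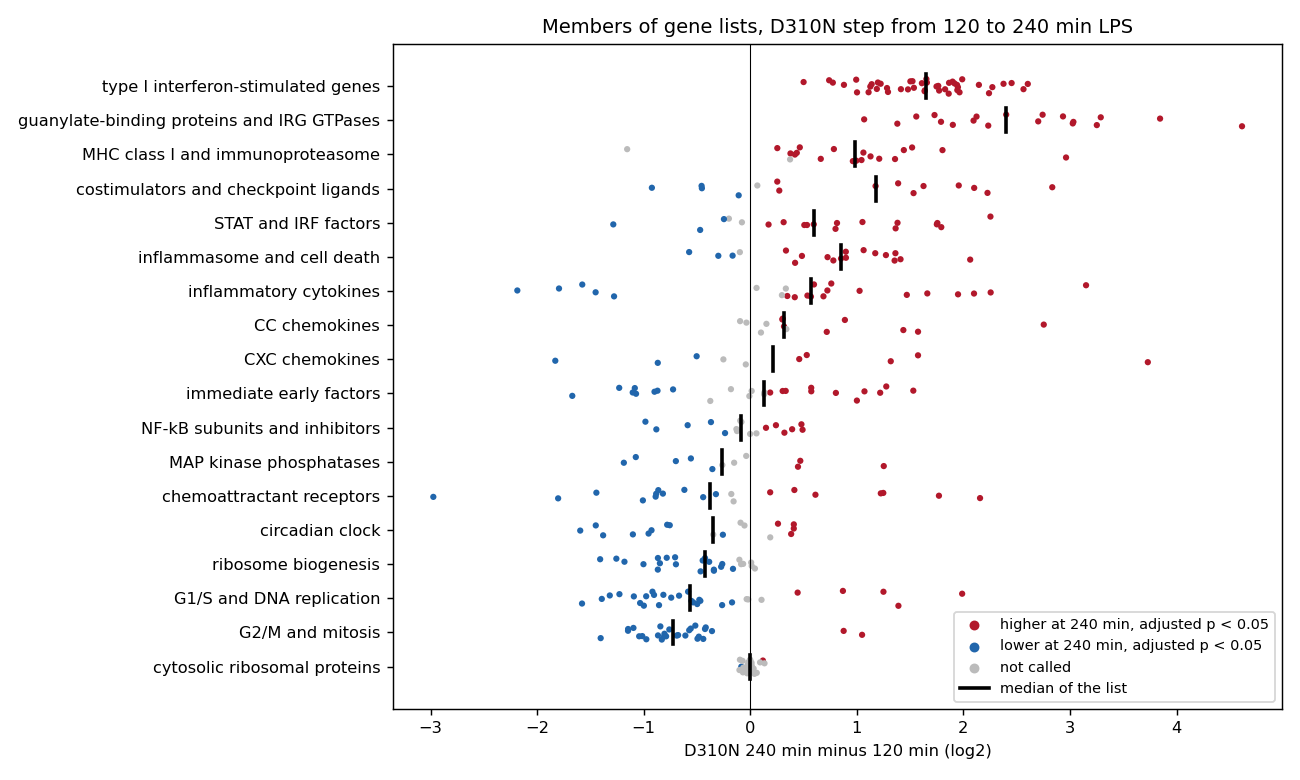
Difference in log2 expression, D310N 240 min minus 120 min (horizontal axis), of each tested member of 18 gene lists; points are genes, coloured by whether they were called higher, called lower or not called in limma, and black bars are list medians. The interferon-stimulated and guanylate-binding lists lie wholly to the right, with medians of 1.65 and 2.40, and the G2/M list mostly to the left, with a median of -0.72.

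Most cytokine genes rose. Of 23 tested inflammatory cytokines 15 rose and 5 fell, with a median of 0.57. Over all tested genes 31.2% were higher and 31.9% lower, so the share of cytokines that fell was not above that of all genes. Tnfsf10, the death ligand TRAIL, had log2 values of 11.78, 11.85 and 11.75 at 240 min, against 8.51, 8.75 and 8.66 at 120 min. Il6, the acute-phase cytokine, had 12.19, 11.83 and 12.07 at 240 min, against 9.89, 9.55 and 9.89 at 120 min. Il12a, the p35 subunit of IL-12, had 7.1, 6.8 and 7.15 at 240 min, against 5.12, 4.79 and 4.85 at 120 min. Each lay higher in all 240 min libraries, with differences of 3.15 ± 0.09 (adjusted p = 4.12e-24), 2.26 ± 0.14 (adjusted p = 6.43e-15) and 2.1 ± 0.18 (adjusted p = 6.96e-12). Il18, Il15 and Il27 rose by 1.95, 1.66 and 1.47. Lif, a cytokine of the IL-6 family, had 4.53, 4.38 and 4.54 at 240 min, against 6.81, 6.34 and 6.86 at 120 min, and fell by 2.19 ± 0.25 (adjusted p = 5.53e-09). The 4 others that fell were Tnfsf9 by 1.79 ± 0.09, Il23a by 1.58 ± 0.2, Csf2 by 1.45 ± 0.15 and the Ifnb1 gene described above. Tnf, with 0.06 ± 0.12, and Il10, with 0.33 ± 0.17, were not called.
Chemokines differed by family. Of 13 CC chemokines 8 rose and 0 fell, with a median of 0.32. Ccl8, a monocyte attractant, had 9.25, 9.07 and 9.16 at 240 min, against 6.47, 6.33 and 6.41 at 120 min, and Ccl12 had 11.37, 11.31 and 11.45 at 240 min, against 9.91, 9.71 and 9.78 at 120 min. Both were higher in each 240 min library, by 2.75 ± 0.16 (adjusted p = 8.89e-16) and 1.57 ± 0.08 (adjusted p = 5.19e-17). Ccl5, which attracts T cells and monocytes, had 14.68, 14.75 and 14.91 at 240 min, against 13.48, 13.43 and 13.13 at 120 min, a difference of 1.44 ± 0.08, and Ccl22 rose by 0.89 ± 0.08. Of 10 tested CXC chemokines 5 rose and 3 fell, and the share that fell was near the 31.9% of all tested genes. The ligands of CXCR3, Cxcl9, Cxcl10 and Cxcl11, were among those that rose, and the neutrophil attractants Cxcl1, Cxcl2 and Cxcl3 were those that fell. Cxcl10 had 16.6, 16.56 and 16.61 at 240 min, against 15.35, 15.25 and 15.22 at 120 min, a difference of 1.32 ± 0.08 (adjusted p = 6.73e-16), and Cxcl11 had 10.42, 10.37 and 10.33 at 240 min, against 8.87, 8.71 and 8.82 at 120 min, a difference of 1.57 ± 0.07 (adjusted p = 9.57e-19). Cxcl1 had 10.89, 10.24 and 10.61 at 240 min, against 12.77, 11.92 and 12.54 at 120 min, with no overlap despite a wide spread within each time, and fell by 1.83 ± 0.24 (adjusted p = 8.98e-08). Cxcl2 fell by 0.87 ± 0.19 and Cxcl3 by 0.5 ± 0.2. Quantile normalisation left 7 CC chemokines higher and 3 lower. It left the CXC counts at 5 and 3, with a median of 0.05, against 0.21 as deposited.
The list of receptors for chemoattractants had a median of -0.38; of its 20 tested members 11 fell and 7 rose, against 31.9% lower and 31.2% higher over all tested genes, so that the share that rose was near that of all genes. Gpr183, the oxysterol receptor that positions leukocytes, had 6.75, 6.8 and 6.59 at 240 min, against 9.58, 9.88 and 9.6 at 120 min. S1pr1, the receptor for sphingosine-1-phosphate, had 6.28, 6.28 and 6.26 at 240 min, against 8.05, 8.15 and 8.04 at 120 min. Cx3cr1, the fractalkine receptor, had 8.1, 8.41 and 8.09 at 240 min, against 9.48, 9.88 and 9.58 at 120 min. The 240 min libraries of all 3 genes lay wholly below, with falls of 2.97 ± 0.09 (adjusted p = 3.52e-23), 1.8 ± 0.09 (adjusted p = 2.9e-17) and 1.44 ± 0.1 (adjusted p = 1.52e-13). The formyl peptide receptors went the other way. Fpr2 had 9.45, 9.45 and 9.4 at 240 min, against 7.29, 7.2 and 7.35 at 120 min, a rise of 2.16 ± 0.12 (adjusted p = 4.73e-16), and Fpr1 rose by 1.22 ± 0.14. P2ry14, a receptor for UDP-glucose, had 9.99, 10.06 and 9.98 at 240 min, against 8.17, 8.31 and 8.23 at 120 min, a rise of 1.77 ± 0.08.
Among 27 tested cytokine receptors 8 rose and 12 fell, and the share that rose was near the 31.2% of all tested genes. Il12rb1, a subunit shared by the IL-12 and IL-23 receptors, had 5.04, 5.44 and 4.82 at 240 min, against 2.15, 2.36 and 2.45 at 120 min, and Il18bp, a decoy for IL-18, had 9.2, 9.32 and 9.34 at 240 min, against 7.03, 7.25 and 6.94 at 120 min. Il1r1, the signalling receptor of IL-1, had 3.27, 3.13 and 2.98 at 240 min, against 4.98, 5.46 and 5.29 at 120 min, and Tgfbr1, the type I TGF-beta receptor, had 10.65, 10.47 and 10.57 at 240 min, against 12.56, 12.52 and 12.76 at 120 min. The first pair rose without overlap, by 2.78 ± 0.29 (adjusted p = 1.01e-09) and 2.21 ± 0.09 (adjusted p = 3.26e-19), and the second pair fell, by 2.11 ± 0.17 (adjusted p = 3.18e-12) and 2.05 ± 0.11 (adjusted p = 1.44e-16). Il12rb1 at 120 min and Il1r1 at 240 min lay under the filter in each library. They passed it through libraries in which they were higher, so these low levels were allowed by the choice. Quantile normalisation left 6 of the list higher and 15 lower. The interferon receptor chains Ifngr1, Ifnar1 and Ifnar2 fell by 1.36 ± 0.05, 0.45 ± 0.06 and 0.12 ± 0.04.
Of 23 Toll-like receptors and adaptors 11 were higher and 10 lower, and their median of -0.02 changed sign under median centring (0.01). Tlr3, the sensor of double-stranded RNA, had 11.76, 11.78 and 11.84 at 240 min, against 9.6, 9.79 and 9.73 at 120 min, and rose by 2.09 ± 0.07 (adjusted p = 4.87e-22). Tlr2, the lipoprotein receptor, had 12.48, 12.58 and 12.56 at 240 min, against 13.4, 13.55 and 13.41 at 120 min, and Traf3, an adaptor that restrains cytokine signalling, had 8.6, 8.58 and 8.61 at 240 min, against 9.79, 9.93 and 9.9 at 120 min. Both lay lower in all 240 min libraries, by 0.91 ± 0.06 (adjusted p = 1.58e-14) and 1.27 ± 0.12 (adjusted p = 1.26e-10). Tlr13, a sensor of bacterial ribosomal RNA, fell by 1.1 ± 0.04, while Tlr7, Tlr8 and Tlr9 rose by 0.85, 0.9 and 0.89. Tlr4 rose by 0.5 ± 0.06 and its partner Ly96 by 0.81 ± 0.07.
The genes of the ABIN and Tpl2 pathway changed little apart from Tnip1. Tnip2 (chromosome 5, 34496087 to 34513991, GRCm38) had log2 values of 9.37, 9.34 and 9.3 at 240 min, against 9.11, 9.14 and 9.03 at 120 min, without overlap, and a difference of 0.24 ± 0.06 (adjusted p = 0.0013). Map3k8, the kinase Tpl2, had 10.8, 10.64 and 10.73 at 240 min, against 10.46, 10.46 and 10.53 at 120 min, a difference of 0.24 ± 0.05 (adjusted p = 0.000142). Nfkb1, whose product p105 also binds Tpl2, had 13.53, 13.57 and 13.58 at 240 min, against 13.14, 13.21 and 13.15 at 120 min, a difference of 0.39 ± 0.04 (adjusted p = 1.48e-10). These 3 were slightly higher in each 240 min library than in any 120 min library. Tnip1, which encodes the related ABIN-1, had 12.28, 12.33 and 12.36 at 240 min, against 13.22, 13.21 and 13.19 at 120 min, and fell by 0.88 ± 0.06 (adjusted p = 1.46e-14). Tnfaip3, the ubiquitin-editing enzyme A20, had 14.55, 14.64 and 14.58 at 240 min, against 14.68, 14.75 and 14.72 at 120 min. Its libraries did not overlap, but its difference of -0.12 ± 0.06 lay at the threshold and was not called (adjusted p = 0.0505), while 7 of the 19 alternatives called it, all lower. Tnip3 had 13.7, 13.72 and 13.65 at 240 min, against 13.32, 13.39 and 13.39 at 120 min, a difference of 0.32 ± 0.09. Over the 17 NF-kB subunits and inhibitors 6 rose and 5 fell, none by more than 1, and quantile normalisation left 4 higher and 11 lower. Before that normalisation both shares were near those of all tested genes, 31.2% higher and 31.9% lower. Nfkbid, a nuclear inhibitor-like regulator of NF-kB, had 8.26, 8.44 and 8.45 at 240 min, against 9.47, 9.31 and 9.32 at 120 min, a fall of 0.98 ± 0.09 (adjusted p = 6.11e-11). Nfkb2, which encodes p100, rose by 0.49 ± 0.04 (adjusted p = 1.77e-11), and the deubiquitinase gene Otulin fell by 0.59 ± 0.07.
Among immediate early factors the median was 0.13; 11 of 25 rose and 8 fell, and the share that fell was near that of all tested genes (31.9%). Jun had 10.57, 10.56 and 10.52 at 240 min, against 9.11, 9.05 and 8.9 at 120 min, and Fos had 10.3, 10.48 and 10.45 at 240 min, against 9.17, 9.08 and 9.16 at 120 min; both encode AP-1 subunits. Each lay above its 120 min values in all 240 min libraries, by 1.53 ± 0.06 (adjusted p = 1.01e-19) and 1.28 ± 0.07 (adjusted p = 1.29e-16). Fosl1, another AP-1 subunit, had 2.8, 2.6 and 2.3 at 240 min, against 4.32, 3.89 and 4.5 at 120 min, and Egr2, a zinc finger factor, had 7.75, 7.84 and 7.75 at 240 min, against 8.94, 9.1 and 8.99 at 120 min. These fell without overlap, by 1.67 ± 0.18 (adjusted p = 9.15e-10) and 1.23 ± 0.1 (adjusted p = 4.42e-12). Fosl1 lay under the filter in each 240 min library and passed it through libraries in which it was higher, so its low level was allowed by the choice. Over its 0 min level the list median stood at 1.38 at 30 min, -0.18 at 120 min and -0.26 at 240 min. These levels fell while the median difference was 0.13, since the middle gene need not be the same. Quantile normalisation left 8 of the list higher and 8 lower.
Inhibitors of signalling held members of both directions. Of 11 MAP kinase phosphatases 3 rose and 5 fell, the share that rose near the 31.2% of all tested genes. Dusp10, which acts on p38 and JNK, had 5.91, 6.03 and 5.91 at 240 min, against 4.66, 4.87 and 4.56 at 120 min, a rise of 1.25 ± 0.13 (adjusted p = 8.88e-10). Dusp4, which acts on nuclear ERK, had 7.61, 7.85 and 7.47 at 240 min, against 8.74, 8.87 and 8.87 at 120 min, and Dusp3 had 9.87, 9.89 and 9.9 at 240 min, against 10.94, 11.01 and 10.93 at 120 min. Both lay lower in each 240 min library, by 1.19 ± 0.08 (adjusted p = 1.81e-14) and 1.07 ± 0.05 (adjusted p = 1.43e-17). Of 14 SOCS and cytokine feedback genes 9 rose and 2 fell, or 6 and 3 under quantile normalisation. Socs1, the main brake on interferon receptors, had 10.5, 10.54 and 10.62 at 240 min, against 9.41, 9.39 and 9.01 at 120 min, a rise of 1.29 ± 0.14 (adjusted p = 2.86e-09). Cish, a target of STAT5, had 8.75, 8.64 and 8.8 at 240 min, against 10.21, 10.0 and 10.08 at 120 min, a fall of 1.37 ± 0.17 (adjusted p = 4.25e-08), and Socs5 fell by 1.04 ± 0.06. Of 18 regulators of mRNA decay 7 rose and 6 fell, with a median of 0.07 that became -0.07 under quantile normalisation, and both shares were near those of all tested genes. Zfp36l1, which targets AU-rich messages, had 8.01, 8.01 and 8.0 at 240 min, against 9.4, 9.5 and 9.53 at 120 min, and fell by 1.47 ± 0.08 (adjusted p = 2.09e-16). Btg2, a recruiter of deadenylases, rose by 1.07 ± 0.07, Pnrc1 by 0.84 ± 0.05 and Dcp2, a decapping enzyme, by 0.79 ± 0.07.
Effector enzymes of inflamed macrophages were among the steep rises. Nos2, inducible nitric oxide synthase, had 12.83, 12.83 and 12.82 at 240 min, against 9.88, 9.88 and 9.84 at 120 min. Hdc, which makes histamine, had 10.41, 10.59 and 10.45 at 240 min, against 7.67, 7.63 and 7.59 at 120 min. Kynu, kynureninase of tryptophan breakdown, had 7.06, 7.14 and 7.06 at 240 min, against 3.77, 4.0 and 4.42 at 120 min. All 240 min libraries stood above the 120 min libraries, by 2.96 ± 0.07 (adjusted p = 5.32e-26), 2.85 ± 0.08 (adjusted p = 1.6e-23) and 3.02 ± 0.16 (adjusted p = 1.4e-16). In the whole list of 23 nitric oxide, arginine, itaconate, prostanoid and oxidase genes 12 rose and 8 fell, with a median of 0.18 that became -0.10 under quantile normalisation. Ptgs2, the inducible cyclooxygenase, rose by 1.88. Ptger2, a receptor for prostaglandin E2, had 5.52, 5.48 and 5.28 at 240 min, against 7.79, 7.67 and 7.62 at 120 min, and fell by 2.27 ± 0.12 (adjusted p = 2.72e-17).
Inflammasome and cell death genes mostly rose, with 15 of 19 higher, 3 lower and a median of 0.85. Mlkl, the executor of necroptosis, had 11.36, 11.27 and 11.32 at 240 min, against 9.24, 9.14 and 9.39 at 120 min. Casp1, the inflammasome protease, had 12.93, 12.81 and 12.85 at 240 min, against 11.54, 11.37 and 11.6 at 120 min. Casp8 had 11.65, 11.62 and 11.63 at 240 min, against 10.26, 10.27 and 10.3 at 120 min. No 240 min library reached down to the 120 min range, and the differences were 2.06 ± 0.06 (adjusted p = 1.01e-22), 1.36 ± 0.06 (adjusted p = 3.06e-18) and 1.35 ± 0.04 (adjusted p = 5.22e-24). In the Bcl2 family 6 of 15 rose and 6 fell under quantile normalisation. On the deposited scale 8 rose and 4 fell, and the share that fell was not above the 31.9% of all tested genes. The 4 were Bcl2l11, which encodes the death-promoting protein BIM, with 11.05, 11.32 and 11.13 at 240 min, against 12.48, 12.77 and 12.64 at 120 min, Bmf by 1.41 ± 0.14, and the survival genes Bcl2 by 1.34 ± 0.12 and Bcl2l1 by 0.9 ± 0.05. Bcl2l11 fell by 1.46 ± 0.08 (adjusted p = 6.73e-16), with its 240 min libraries wholly below.
The 12 steepest falls, taken by the same rule, were of genes with many roles. Frmd6, a FERM-domain protein upstream of Hippo signalling, had 8.16, 8.13 and 8.15 at 240 min, against 11.14, 11.25 and 11.32 at 120 min. Bcor, a corepressor of BCL6, had 8.65, 8.9 and 8.87 at 240 min, against 11.55, 11.79 and 11.66 at 120 min. Slco4a1, an organic anion transporter, had 4.73, 5.53 and 4.89 at 240 min, against 7.49, 7.92 and 7.65 at 120 min. The groups were apart in each case, with falls of 3.09 ± 0.07 (adjusted p = 1.07e-25), 2.86 ± 0.07 (adjusted p = 3.19e-25) and 2.64 ± 0.15 (adjusted p = 6.12e-16). Kcnk13, a potassium leak channel, had 6.68, 6.88 and 6.58 at 240 min, against 9.07, 9.1 and 9.08 at 120 min. Phldb1, a pleckstrin homology protein of the cell cortex, had 8.76, 9.13 and 8.91 at 240 min, against 11.16, 11.3 and 11.21 at 120 min. Pgf, placental growth factor, had 4.03, 3.84 and 4.2 at 240 min, against 6.24, 6.61 and 6.08 at 120 min. None overlapped, and they fell by 2.37 ± 0.11, 2.29 ± 0.12 and 2.28 ± 0.16. Mtss1, an actin and membrane-bending protein, had 8.91, 9.02 and 8.79 at 240 min, against 10.93, 11.4 and 11.09 at 120 min, and Rnd1, an atypical small GTPase, had 8.74, 8.62 and 8.82 at 240 min, against 11.05, 10.75 and 10.99 at 120 min. They fell by 2.24 ± 0.08 (adjusted p = 7.35e-21) and 2.2 ± 0.18 (adjusted p = 3.27e-12), again without overlap.
Cebpa, a factor of granulocyte and macrophage fate, had 5.98, 6.06 and 6.08 at 240 min, against 8.36, 8.27 and 8.13 at 120 min, and fell by 2.22 ± 0.09 (adjusted p = 6.55e-20). The difference of its steps, D310N minus WT, was -0.62 ± 0.13 (adjusted p = 0.0112). It was the steepest fall in the macrophage identity list, in which 15 of 27 rose and 5 fell, with a median of 0.17 that became -0.10 under quantile normalisation (8 higher and 11 lower). Mertk, a receptor for apoptotic cells, had 11.5, 11.35 and 11.42 at 240 min, against 8.94, 8.98 and 8.99 at 120 min. Fcgr1, the high-affinity IgG receptor, had 13.51, 13.55 and 13.47 at 240 min, against 11.62, 11.58 and 11.57 at 120 min. Both lay higher in each 240 min library, by 2.45 ± 0.09 (adjusted p = 1.53e-21) and 1.92 ± 0.08 (adjusted p = 1.8e-19). Among phagocytic and lectin receptors 4 of 20 rose and 7 fell, or 3 and 11 under quantile normalisation; Olr1, a scavenger of oxidised lipoprotein, fell by 1.25 ± 0.16 and Cd300a, an inhibitory receptor, by 1.21 ± 0.05. Among 28 integrins and matrix proteases 10 rose and 9 fell, or 7 and 11 under quantile normalisation. On the deposited scale both shares were near those of all tested genes, 31.2% higher and 31.9% lower. Itgal, the alpha chain of LFA-1, rose by 1.52 ± 0.11, and Plau, urokinase, fell by 0.99 ± 0.16.
Cell cycle genes fell. Of 28 G2/M and mitosis genes 26 were lower and 2 higher, against 31.9% lower and 31.2% higher over all tested genes, with a median of -0.72. Kif23, a kinesin of cytokinesis, had 5.44, 5.85 and 5.9 at 240 min, against 6.97, 7.02 and 7.41 at 120 min. Ccna2, cyclin A2, had 6.98, 6.91 and 7.03 at 240 min, against 8.02, 8.08 and 8.27 at 120 min. Cenpf, a kinetochore protein, had 5.36, 5.29 and 5.47 at 240 min, against 6.24, 6.51 and 6.8 at 120 min. The groups did not overlap, with falls of 1.4 ± 0.13 (adjusted p = 2.7e-11), 1.15 ± 0.17 (adjusted p = 9.7e-07) and 1.15 ± 0.13 (adjusted p = 8.19e-09). The 2 that rose were Tpx2, a spindle assembly factor, by 1.05 ± 0.1 and Cenpe, a kinetochore motor, by 0.88 ± 0.09. Of 30 G1/S and replication genes 22 fell and 5 rose, with a median of -0.57. Uhrf1, which maintains DNA methylation, had 6.91, 7.16 and 7.08 at 240 min, against 8.56, 8.57 and 8.76 at 120 min, and Rrm2, which supplies deoxynucleotides, had 7.27, 7.07 and 7.21 at 240 min, against 8.59, 8.47 and 8.66 at 120 min. Both lay lower throughout at 240 min, by 1.58 ± 0.07 (adjusted p = 1.39e-18) and 1.39 ± 0.1 (adjusted p = 3.96e-13). The 5 that rose were Rbl1, which encodes the E2F-binding p107, by 1.99 ± 0.06, Ccnd2 by 1.39 ± 0.07, Ccne1 by 1.25 ± 0.17, Mcm10 by 0.87 ± 0.1 and Cdt1 by 0.44 ± 0.07. Of 18 CDK inhibitors and p53 targets 9 rose and 6 fell; Mdm2, the p53 ligase, had 12.94, 12.71 and 12.89 at 240 min, against 11.51, 11.52 and 11.54 at 120 min, a rise of 1.32 ± 0.05 (adjusted p = 1.81e-20), and Sesn2, a stress-induced regulator of mTORC1, rose by 1.78 ± 0.11.
Genes of ribosome assembly fell, and few genes of the ribosome itself were called on the deposited scale. Of 25 ribosome biogenesis genes 0 rose and 19 fell, with a median of -0.42. Polr1b, a subunit of RNA polymerase I, had 6.82, 6.51 and 6.82 at 240 min, against 8.1, 8.09 and 8.19 at 120 min. Gnl3, nucleostemin, had 8.38, 8.44 and 8.46 at 240 min, against 9.65, 9.61 and 9.79 at 120 min. Nop58, a core protein of box C/D snoRNPs, had 9.46, 9.31 and 9.4 at 240 min, against 10.34, 10.36 and 10.47 at 120 min. Every 240 min library was below every 120 min library, with falls of 1.41 ± 0.1 (adjusted p = 3.45e-14), 1.26 ± 0.07 (adjusted p = 9.11e-17) and 1.0 ± 0.07 (adjusted p = 3.22e-13). Of 30 cytosolic ribosomal protein genes 1 was higher, Rpl27 by 0.12 ± 0.05, and 1 lower, Rpl3 by 0.08 ± 0.03, though under quantile normalisation 29 of the 30 were lower and under median centring 2 were higher and 0 lower. Of 21 aminoacyl-tRNA synthetases 7 rose and 11 fell, or 4 and 11 under quantile normalisation. As deposited, the share that rose was near the 31.2% of all tested genes. Wars, tryptophanyl-tRNA synthetase and an interferon target, had 11.61, 11.6 and 11.56 at 240 min, against 10.04, 10.01 and 10.06 at 120 min, a rise of 1.55 ± 0.04 (adjusted p = 8.04e-25) without overlap.
Metabolic lists moved by small amounts. Fatty acid synthesis fell in 10 of 15 genes and rose in 3, with a median of -0.36. Scd2, a stearoyl-CoA desaturase, had 9.32, 9.37 and 9.49 at 240 min, against 10.49, 10.64 and 10.63 at 120 min, and Fads1, a polyunsaturated fatty acid desaturase, had 9.46, 9.61 and 9.63 at 240 min, against 10.57, 10.61 and 10.53 at 120 min. Both fell without overlap, by 1.19 ± 0.07 (adjusted p = 2.78e-16) and 1.0 ± 0.09 (adjusted p = 3.48e-11). Of 23 tested sterol genes 10 rose and 4 fell. Of 15 LXR and cholesterol efflux genes 6 rose and 5 fell, or 4 and 8 under quantile normalisation. On the deposited scale the share that fell was near the 31.9% of all tested genes. The cholesterol exporter gene Abca1 fell by 1.09 ± 0.1, and Ch25h, which makes 25-hydroxycholesterol, rose by 1.04 ± 0.07. In glycolysis 7 of 19 rose and 2 fell, but 6 rose and 10 fell under quantile normalisation. The hexokinase genes Hk3, Hk1 and Hk2 led it with 0.87 ± 0.08, 0.83 ± 0.04 and 0.71 ± 0.12. Of 25 oxidative phosphorylation genes 11 were higher and 0 lower by at most 0.42, and of 20 tricarboxylic acid cycle genes 6 were higher and 5 lower. Neither share of the tricarboxylic acid list exceeded that of all tested genes, 31.2% higher and 31.9% lower. Under quantile normalisation the counts of these lists became 3 and 4, and 0 and 15.
Stress and degradation lists leaned downwards in oxidant and hypoxia targets. Of 21 Nrf2 and haem-oxidant genes 11 fell and 3 rose, with a median of -0.28. Slc40a1, the iron exporter ferroportin, had 7.07, 6.91 and 7.04 at 240 min, against 8.54, 8.57 and 8.42 at 120 min, and Txnrd1, thioredoxin reductase, had 12.55, 12.41 and 12.53 at 240 min, against 13.66, 13.58 and 13.74 at 120 min. Keap1, which marks Nrf2 for degradation, had 11.62, 11.68 and 11.63 at 240 min, against 10.19, 10.15 and 10.21 at 120 min. The first pair fell without overlap, by 1.5 ± 0.05 (adjusted p = 5.68e-21) and 1.16 ± 0.08 (adjusted p = 3.05e-14), and Keap1 rose by 1.46 ± 0.04 (adjusted p = 5.57e-24). Of 16 hypoxia-inducible genes 10 fell and 1 rose; Hilpda, a lipid droplet protein, fell by 1.79 ± 0.12 and Adm, adrenomedullin, by 1.72 ± 0.16, while P4ha1, a collagen prolyl hydroxylase, rose by 0.97 ± 0.06. Of 20 tested ATF4 and integrated stress genes 5 rose and 9 fell, and of 14 heat shock chaperones 4 rose and 4 fell (3 and 7 under quantile normalisation, 5 and 3 under median centring), led by Dnaja1 with 0.9 ± 0.08. As deposited, both heat shock shares were near those of all tested genes, 31.2% higher and 31.9% lower. Of 23 endoplasmic reticulum chaperone genes 4 rose and 8 fell, but 1 rose and 16 fell under quantile normalisation and 4 and 5 under median centring; Herpud1, of protein degradation, fell by 1.17 ± 0.13. Of 22 constitutive proteasome genes 16 rose and 2 fell, with a median of 0.16, led by Psma5 with 0.73 ± 0.06; quantile normalisation left 6 higher and 4 lower, and median centring 18 and 0. Of 28 lysosomal genes 6 rose and 8 fell, but 2 rose and 21 fell under quantile normalisation. The circadian list had 9 of 17 lower and 4 higher, with a median of -0.35, and its steepest falls were those of the repressors Bhlhe40 (1.6 ± 0.09) and Bhlhe41 (1.45 ± 0.1).
Some markers of other cell types rose with the step, and their part in the results was not tested. The stromal and endothelial list, with 5 of 12 members tested, summed to between 1610 and 1940 on the linear scale at 240 min, against between 421 and 503 at 120 min; Kdr, a receptor for vascular endothelial growth factor, rose by 2.22 ± 0.11, and Pecam1 rose by 1.72 ± 0.2. The T and NK cell list, with 3 of 10 tested, summed to between 493 and 530, against between 177 and 220, and Lck, a kinase gene, had 8.57, 8.56 and 8.57 at 240 min, against 5.95, 5.97 and 5.96 at 120 min. The other tested members, Cd247 and Cd4, overlapped and were not called, and the median of the 3 was -0.02. The dendritic list, with 6 of 10 tested, summed to between 5280 and 5560, against between 2330 and 2700; Bst2, which is also interferon-inducible, rose by 1.13 ± 0.07, Clec9a by 1.49 ± 0.27, and Zbtb46 fell by 2.12 ± 0.18. The B cell list summed to between 4530 and 4910, against between 3810 and 4290, the neutrophil list to between 107 and 118, against between 69.2 and 84.5, and the list of mast cell, erythroid and megakaryocyte genes to between 18.6 and 26.2, against between 32.9 and 36.0. In the neutrophil list Lcn2 alone was called, with a rise of 1.11 ± 0.2; S100a8 and S100a9 overlapped, and the median of the 3 tested was -0.19. Col1a1 and Col3a1 of the stromal list, Cd3d and Cd8a of the T cell list and Cd79a of the B cell list were among the untested members whose highest values are given above.
The step separated genes by when they peak in WT macrophages, a class set from libraries that the D310N step does not use, for genes whose WT means spanned at least 1. Of 888 genes with their highest WT mean at 240 min, 787 rose in D310N (88.6%) and 3 fell, with a median of 0.86, and of 880 with their highest mean at 360 min 783 rose (89.0%) and 7 fell. Of 324 genes that peaked at 120 min in WT 260 fell (80.2%) and 2 rose, with a median of -0.65. A WT peak at 240 or 120 min fixes the sign of the same step in WT, whose medians were 0.87 and -0.68. For these classes the counts therefore restate how alike the step was in the 2 genotypes. The 501 genes that peaked at 60 min had the lowest class median, -0.76, with 422 lower (84.2%). Genes of the 30 min class, 742 in number, had 465 lower (62.7%) and 81 higher (10.9%), and Tcp11l2 among them had 4.86, 4.63 and 4.97 at 240 min, against 6.95, 7.11 and 6.9 at 120 min, a difference of -2.17 ± 0.11. Of the 931 that were highest before LPS 614 fell (66.0%), and 6430548M08Rik among them had 6.48, 6.19 and 6.06 at 240 min, against 8.28, 8.33 and 8.28 at 120 min, a difference of -2.05 ± 0.11. Of the 7393 genes whose WT means spanned less than 1, 1917 rose (25.9%) and 1945 fell (26.3%). With the WT 360 min mean taken without replicate 1, 832 genes peaked at 240 min, of which 740 rose (88.9%) and 1066 at 360 min, of which 903 rose (84.7%), a choice made after the data were seen.

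**Figure D3:**
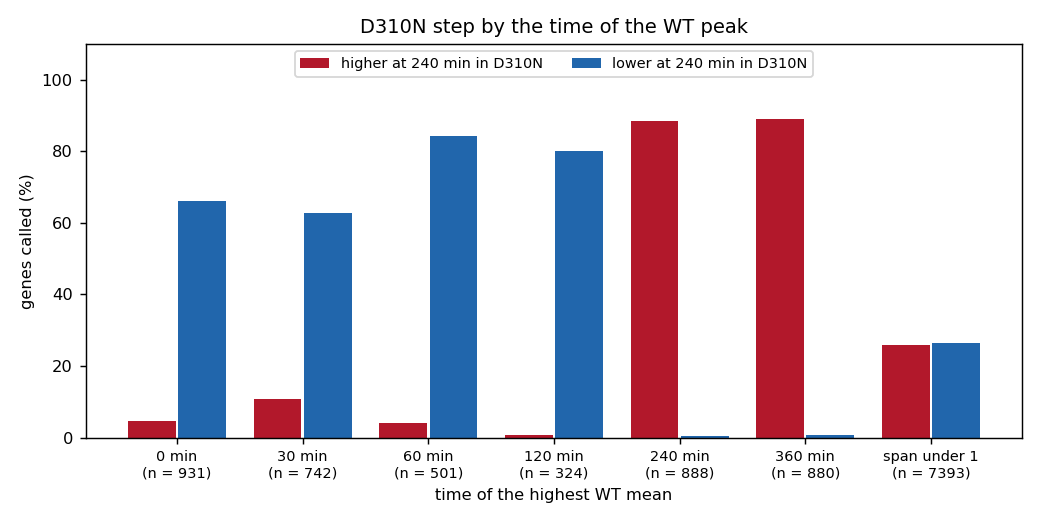
Percentage of genes called higher (left bar of each pair) and lower (right bar) at 240 min over 120 min in D310N (vertical axis), by the time at which the WT mean was highest (horizontal axis, number of genes in brackets). Genes that peak at 240 or 360 min in WT mostly rose, 88.6% and 89.0%, and those that peak at 60 or 120 min mostly fell, 84.2% and 80.2%.

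The steps on either side, which share libraries with this one, had fewer large differences. The earlier step spans 60 min, against 120 min for this step and the later one, so its counts do not compare rates of change. For 120 min against 60 min in D310N 6388 genes were called (54.8%), 3241 higher (27.8%) and 3147 lower (27.0%), with 425 over 1 higher and 284 over 1 lower. For 360 min against 240 min 4540 were called (38.9%), 2174 higher (18.6%) and 2366 lower (20.3%), with 77 and 49 over 1. The median of the interferon-stimulated list over its 0 min level was 0.01 at 60 min, 1.12 at 120 min, 2.91 at 240 min and 2.78 at 360 min. The guanylate-binding and IRG list stood at 0.04, 1.98, 3.98 and 4.32 at the same times, and the G2/M list at 0.11, -0.27, -1.04 and -1.55. Inflammatory cytokines stood at 1.58, 3.22, 3.3 and 3.09, so that their median was already near its highest group value at 120 min. Even so, 15 of the 23 rose from 120 to 240 min, with a median difference of 0.57. The middle gene of the levels need not be that of the differences.

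**Figure D4:**
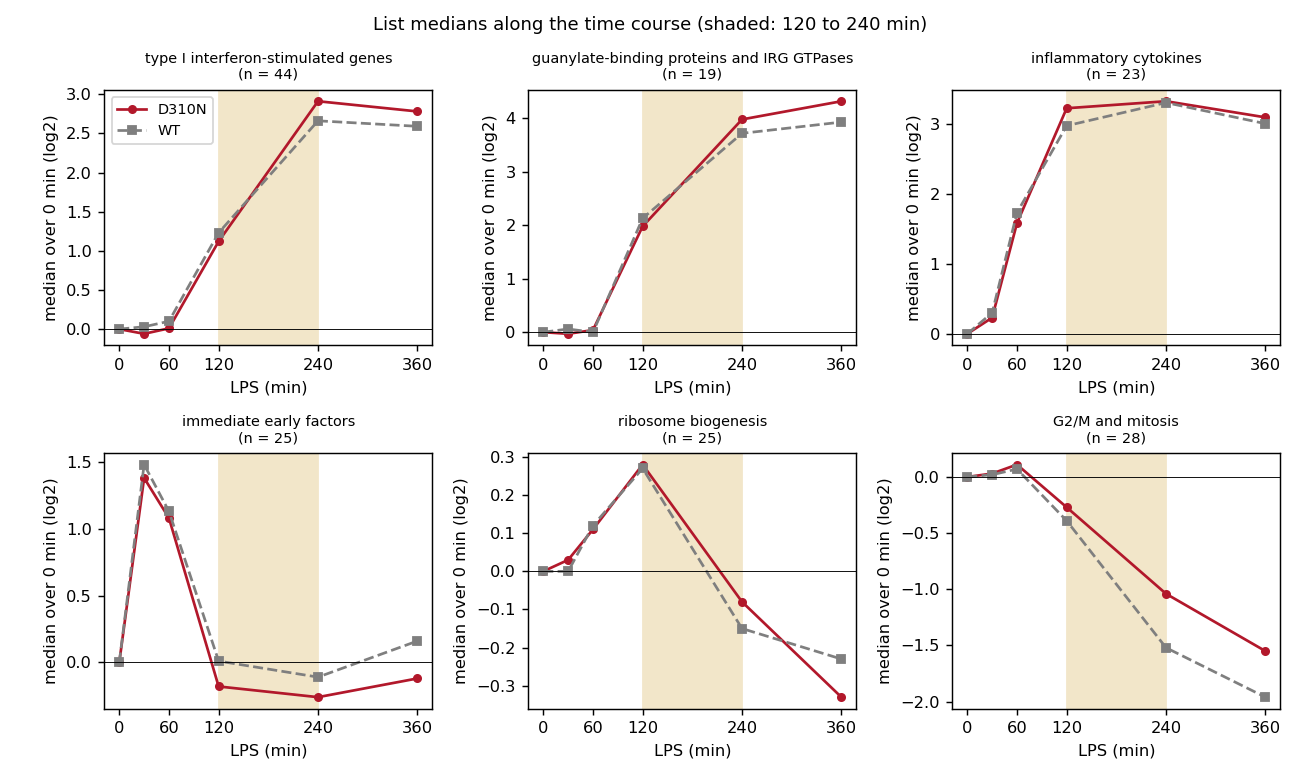
Median log2 expression over the 0 min level of the same genotype (vertical axis) at 0 to 360 min of LPS (horizontal axis) for 6 gene lists, D310N as circles and solid lines, WT as squares and dashed lines, with the span between 120 and 240 min shaded. Within the shaded span the interferon-stimulated median of D310N reaches 2.91 at 240 min, against 1.12 at 120 min, and the G2/M median -1.04, against -0.27.

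The same step in WT macrophages was close in size. In WT 7492 genes were called (64.3%), 3907 higher (33.5%) and 3585 lower (30.7%), with 759 over 1 higher and 466 over 1 lower. Across the 11659 genes the D310N and WT differences, which share no library, correlated with r = 0.951 and a slope of 0.963, a description over genes that are not independent.
A test of the difference of the 2 steps, D310N minus WT, called 101 genes (0.866%), 54 with a D310N step above that of WT (0.463%) and 47 below (0.403%). This count moved by more than 1.5 times when a single library was left out: it was 67 without D310N 120 min replicate 1, 46 without D310N 240 min replicate 1, 64 without D310N 240 min replicate 3, 52 without WT 120 min replicate 1, 64 without WT 120 min replicate 2, 63 without WT 240 min replicate 1, 52 without WT 240 min replicate 3 and 315 without WT 360 min replicate 1. The 10 genes named from this test remained called in every alternative run. Of the 54 genes 53 are annotated as protein coding and 1 as a pseudogene, and of the 47 genes 41 and 5, with 97 pseudogenes among all tested genes; a pseudogene can share reads with its parent gene, so these values are uncertain.

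**Figure D5:**
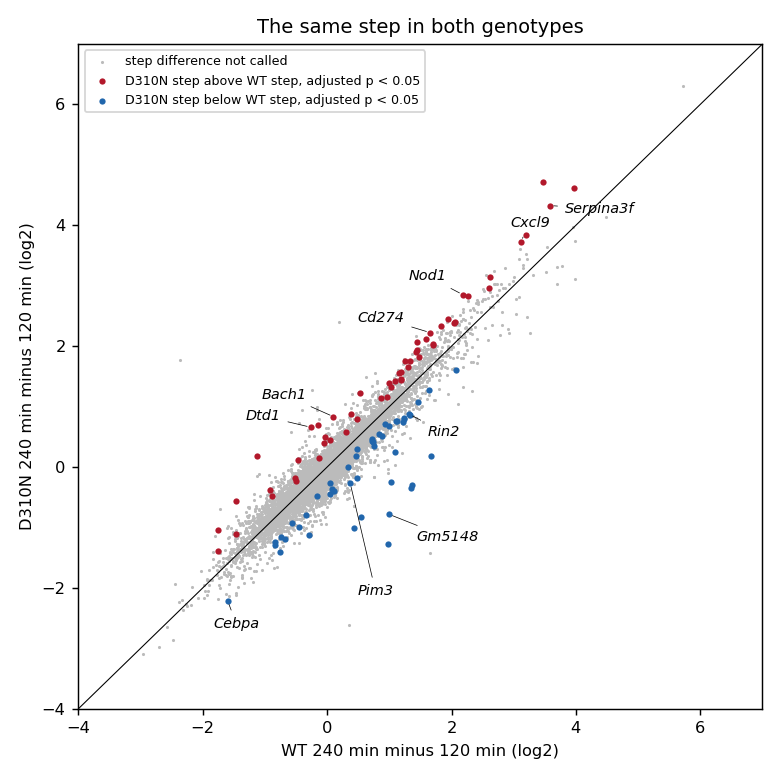
Difference of 240 min minus 120 min in D310N (vertical axis) against the same difference in WT (horizontal axis), both log2, for 11659 tested genes; the line marks equal steps, and coloured points are the 101 genes with a called difference of the steps. The differences of the 2 genotypes correlate with r = 0.951, with Cxcl9 and Nod1 above it and Rin2, Pim3 and Gm5148 below.

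Genes of the interferon response were among those with a larger rise in D310N. Cxcl9 rose by 3.73 ± 0.06 in D310N and 3.12 ± 0.06 in WT, whose log2 values were 13.65, 13.75 and 13.69 at 240 min, against 10.69, 10.59 and 10.46 at 120 min. The WT libraries lay above the D310N libraries at both times, by more at 120 min, and the difference of the steps was 0.62 ± 0.08 (adjusted p = 8.23e-05). Nod1, a cytosolic sensor of bacterial peptidoglycan, had 11.43, 11.47 and 11.48 at 240 min, against 8.57, 8.69 and 8.55 at 120 min in D310N, and 11.57, 11.6 and 11.52 at 240 min, against 9.44, 9.34 and 9.37 at 120 min in WT. It was lower in D310N at 120 min in each library, and the steps differed by 0.67 ± 0.09 (adjusted p = 5.55e-05). Cd274 had 14.31, 14.4 and 14.32 at 240 min, against 12.73, 12.76 and 12.58 at 120 min in WT, a step of 1.65 ± 0.06, and a difference of 0.57 ± 0.08 (adjusted p = 0.000202). Serpina3f had 10.94, 11.01 and 10.97 at 240 min, against 7.46, 7.42 and 7.28 at 120 min in WT, with a difference of 0.74 ± 0.12 (adjusted p = 0.00078). For Serpina3f and Cd274 the D310N rise was the larger.
In the lists, 44 of 44 interferon-stimulated genes and 19 of 19 guanylate-binding and IRG genes had a larger rise in D310N than in WT, against 46.1% of all tested genes. Over the alternatives these counts ran from 42 to 44 and from 18 to 19. The members were chosen with earlier results of these data known. They are read from the same libraries and are not independent, so the counts are a description and not a test of genotype. The list medians were 1.65 in D310N and 1.34 in WT, and 2.40 in D310N and 2.06 in WT. Taken singly, 6 of the 44 and 4 of the 19 were called for a different step: Ifit2, Ifit3, Rsad2, Ddx58, Eif2ak2 and Pml, by 0.49 ± 0.09, 0.46 ± 0.1, 0.42 ± 0.1, 0.35 ± 0.08, 0.36 ± 0.07 and 0.33 ± 0.08, and Iigp1, Gbp4, Tgtp2 and Gbp3, by 0.65 ± 0.14, 0.64 ± 0.14, 0.53 ± 0.1 and 0.34 ± 0.07. The D310N minus WT median was -0.13 at 240 min and -0.41 at 120 min for the interferon-stimulated list, and -0.18 at 240 min and -0.51 at 120 min for the guanylate-binding list, so both lists were lower in level in D310N at both times and less so at 240 min. Set over the 0 min level of the same genotype, the order at 240 min was the other way. The interferon-stimulated median was then 2.91 in D310N and 2.66 in WT at 240 min, against 1.12 and 1.23 at 120 min. The guanylate-binding median was 3.98 in D310N and 3.72 in WT at 240 min, against 1.98 and 2.13 at 120 min.
The cell cycle lists had the smaller median fall in D310N. All 28 G2/M genes had the smaller fall or larger rise in D310N, from 25 to 28 over the alternatives, with a median of -0.72 in D310N and -0.97 in WT, although 1 alone, Cdc20, was called, by 0.72 ± 0.16 (adjusted p = 0.0207). Of 30 G1/S genes 26 did, with Dnmt1 called by 0.41 ± 0.07 (adjusted p = 0.00218). The G2/M list was lower in level in D310N at both times, with D310N minus WT medians of -0.41 at 240 min and -0.71 at 120 min. Set over the 0 min level of the same genotype, its median was -1.04 in D310N and -1.52 in WT at 240 min, against -0.27 and -0.39 at 120 min. Of 9 class II genes 0 had a larger D310N difference than WT, with medians of 0.11 in D310N and 0.31 in WT, and none of them was called for a different step. Members of a list share libraries and are not independent, so the counts of these lists are a description as well.
The other named genes differed in both directions. Bach1, a haem-binding repressor of antioxidant genes, had 10.91, 10.89 and 10.83 at 240 min, against 9.91, 10.18 and 10.04 at 120 min in D310N, and 10.83, 10.94 and 10.81 at 240 min, against 10.83, 10.88 and 10.56 at 120 min in WT. It rose without overlap in D310N and overlapped in WT, and the steps differed by 0.73 ± 0.1 (adjusted p = 7.34e-05). Pim3, a serine/threonine kinase, fell by 0.27 ± 0.07 in D310N and stood at 0.37 ± 0.07 in WT, a difference of -0.64 ± 0.1 (adjusted p = 0.000475). Gm5148, annotated as protein coding, had 6.75, 6.85 and 6.78 at 240 min, against 7.68, 7.42 and 7.63 at 120 min in D310N, and 6.7, 6.87 and 6.96 at 240 min, against 6.16, 5.4 and 5.99 at 120 min in WT. Its libraries moved in opposite directions, and the steps differed by -1.78 ± 0.23 (adjusted p = 5.55e-05).
The last 3 named genes lie on chromosome 2. Dtd1, which clears D-amino acids from tRNA (chromosome 2, 144599897 to 144768758), had 7.27, 7.26 and 7.44 at 240 min, against 6.67, 6.66 and 6.66 at 120 min in D310N, and 5.85, 6.31 and 6.14 at 240 min, against 6.3, 6.42 and 6.37 at 120 min in WT. It was higher in D310N in each library of both times, rose by 0.66 ± 0.1 in D310N and stood at -0.26 ± 0.1 in WT, a difference of 0.92 ± 0.14 (adjusted p = 0.000562). Rin2, a Rab5 exchange factor (chromosome 2, 145675215 to 145887616), rose in both genotypes, by 0.87 ± 0.04 in D310N and 1.32 ± 0.04 in WT, a difference of -0.45 ± 0.06 (adjusted p = 7.5e-05). Camsap1, a protein of microtubule minus ends, rose by 0.51 ± 0.04 in D310N and 0.87 ± 0.04 in WT, a difference of -0.37 ± 0.06 (adjusted p = 0.000562). Chromosome 2 held 7 of the 101 genes out of 933 tested (0.75%), against 0.866% over all tested genes. Chromosome 5, which carries Tnip2 and also Cxcl9, held 15 out of 744 (2.02%), and no cause of this was tested.
Of 25 immediate early factors 3 had a called difference of the steps, D310N minus WT, 1 above 0 and 2 below 0, and 1 phosphatase and 1 NF-kB inhibitor fell further in D310N than in WT. Dusp4 fell by 1.19 ± 0.08 in D310N and stood at -0.68 ± 0.08 in WT, a difference of -0.5 ± 0.11 (adjusted p = 0.0192). Nfkbid fell by 0.98 ± 0.09 in D310N and stood at -0.44 ± 0.09 in WT, a difference of -0.54 ± 0.13 (adjusted p = 0.0345). Myc, a growth-promoting factor, stood at -0.18 ± 0.09 in D310N and 0.49 ± 0.09 in WT, a difference of -0.67 ± 0.13 (adjusted p = 0.00799), and Btg2 differed by -0.39 ± 0.09 (adjusted p = 0.0319). Atf3, a stress-induced repressor, differed by 0.26 ± 0.06 (adjusted p = 0.0251) in the other direction. For Tnip2 the difference of the steps was 0.19 ± 0.09 and for Map3k8 0.21 ± 0.07, and neither was called (adjusted p = 0.435 and adjusted p = 0.193).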

How the data were processed

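RNA from mouse bone marrow-derived macrophages was sequenced as 75 bp single-end reads in 36 libraries, 12 groups of 3. The authors deposited 1 table of normalised log2 values for 16439 rows. Per the submitters' processing notes the tools were STAR 2.5.2a, RSEM 1.2.31 and DESeq2 1.10.1 with the mm10 build; the notes do not name the transformation behind the log2 scale, and the table holds no counts, so the depth is unknown and no counting interval is given. The values ran from -4.14 to 19.3 and were already on a log2 scale, so no pseudocount was added. They are not per gene length, so levels were compared between libraries and not between genes. 23 rows whose names had been turned into dates were left out, and 0 columns of samples were left unmapped.

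limma 3.58.1 in R 4.3.3 was fitted to all 36 libraries with 1 mean per genotype and time, a trend in the variance and 24 residual degrees of freedom, over 11659 genes with a log2 value of at least 3.32 in 3 or more libraries. Contrasts were two-sided, adjusted by Benjamini-Hochberg over all genes tested and called at 0.05. The fit was tested on simulated data. Lists were described by counts and medians without a test. Their counts are to be read beside the shares over all tested genes, 31.2% higher and 31.9% lower. Named genes were the 12 largest rises and 12 largest falls (called, without overlap, with a mean of at least 5.64 in the higher group), up to 4 of the largest differences in each list and every tested marker of another cell type, 6 genes of the Tnip2 pathway, the 10 smallest p-values for the difference of the steps, and the 2 largest of each WT peak class. Other list members were named after their values were seen. Some genes that the rule names are not reported here. The members, lists and rules were chosen with earlier results of these data known. Gene positions are from GENCODE M21 and promoters from RefSeq (GRCm38.p6).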

Additional observations from a re-analysis of the deposited data

Results flagged for a closer look

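The step from 120 to 240 min differed between genotypes by the test of the difference itself, D310N minus WT, for 101 genes at an adjusted p under 0.05 in limma. The 10 named from this test were Dtd1, with a difference of 0.92 on the log2 scale, Serpina3f with 0.74, Bach1 with 0.73, Nod1 with 0.67, Cxcl9 with 0.62 and Cd274 with 0.57, all with the larger rise in D310N or a rise in D310N alone, and Gm5148 with -1.78, Pim3 with -0.64, Rin2 with -0.45 and Camsap1 with -0.37. No cause of these differences was tested.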

How the results depend on the processing

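Counted over all genes, the D310N step was little moved by the processing. Its 7351 calls, 3635 higher and 3716 lower, stayed within 1.5 times in each of the 19 alternatives run. Leaving out a library gave from 6857 to 7731 calls, from 3420 to 3776 higher and from 3437 to 3955 lower, and quantile normalisation 3212 higher and 4157 lower. The WT step stayed within the same limit, from 7055 to 7838 without 1 library. The gene lists moved more. Of 98 list counts 33 were marked as moved in some alternative, and of 49 list medians 37. Under quantile normalisation the median of macrophage identity went from 0.166 to -0.105, and that of the constitutive proteasome from 0.163 to -0.006.

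The difference of the steps moved more. Against 101 calls, 54 higher and 47 lower, library weights gave 278 (146 and 132), the replicate block 189 (107 and 82), and the fit to the libraries compared alone 82 higher. Leaving out 1 library gave from 46 to 315 calls, from 21 to 161 higher and from 21 to 154 lower, the highest of each without WT 360 min replicate 1. The cause was not tested. Libraries with the same replicate number correlated between -0.0198 and 0.28 in their deviations in D310N, and other pairs between -0.247 and 0.201, so the numbers were not taken as pairs. With the block the D310N step had 7559 calls.

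Quantile normalisation reversed 7 small differences of named genes, which became -0.149 for Ctss, -0.091 for Cd74, -0.112 for Sdha, -0.124 for Rpl27, -0.013 for Blnk, -0.278 for Itgam and -0.081 for Spi1; the cause was not tested. The median of all genes lay between -0.05 and 0.01 under the scalings. With 3 libraries a time and no counts, small changes in low genes could not be separated from noise.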
